A study of Mus musculus with 29 samples.

Results

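The Hox genes encode homeodomain transcription factors that lie in 4 clusters, HoxA, HoxB, HoxC and HoxD. The members analysed here are every gene whose mouse symbol is Hoxa, Hoxb, Hoxc or Hoxd followed by a number. There are 39 such genes among the 50233 genes listed in any of the count tables. The table of the treated cortices lists all 39 and that of the untreated pallia lists 38, without Hoxd4. Their expression was followed in RNA-seq libraries, and the repressive mark H3K27me3 (trimethylation of lysine 27 of histone H3) was followed over the 4 clusters in ChIP-seq peak lists.

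During development the genes of a cluster are switched on in order along the chromosome, the low-numbered paralogue groups in more anterior and the high-numbered groups in more posterior parts of the body axis. In the nervous system they are known for giving hindbrain and spinal cord their segmental identity, while the forebrain, including the cortex, normally keeps them silent. Silent Hox clusters are a classic target of the Polycomb complexes, of which PRC2 writes H3K27me3 and PRC1 reads it, whereas Trithorax proteins and BAF (mSWI/SNF) chromatin remodelling complexes are known for opposing them.

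All samples were mouse forebrain at E17.5, late in cortical neurogenesis. The dcKO embryos carried floxed alleles of Smarcc1 and Smarcc2, which encode the BAF155 and BAF170 subunits of BAF complexes, deleted by the hGFAP-Cre transgene, and the untreated controls of the study were heterozygous for the floxed alleles with the same Cre. That Cre first acts in the medial pallium and later in the dorsal and lateral pallium, so that cells outside its reach, such as vessels and blood, are not deleted. Untreated pallia gave 4 RNA-seq libraries with the letter C (control) and 3 with the letter M (dcKO, replicates 2 to 4), and H3K27me3 libraries with the letter C (control, n = 4) and K (dcKO, n = 4). The genotype entry of the sample labels reads dcKO for all of these libraries, so the letters in the sample titles define the groups. Treated cortices came from 4 WT embryos with vehicle, 4 dcKO embryos with vehicle and 4 dcKO embryos with the Wnt inhibitor ICG-001, given daily to the pregnant mice. The labels do not say which libraries share a litter, so the p-values measure the spread between these samples.

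The RNA-seq libraries held 11946658 to 28391046 counted reads, and both mutated genes were examined first because they check the labels. Smarcc1 stood at 247 to 269 CPM (reads scaled to the size of the library) in the 4 controls, and at 128 and 135 CPM in dcKO replicates 3 and 4. The library labelled dcKO replicate 2 held 245 CPM, next to the lowest control. In the treated cortices the WT vehicle libraries held 245 to 299 CPM and dcKO vehicle replicates 1, 3 and 4 held 133 to 138 CPM, whereas the library labelled dcKO vehicle replicate 2 held 242 CPM. The libraries labelled dcKO inhibitor replicates 1 and 2 held 214 and 252 CPM, and replicates 3 and 4 held 140 and 173 CPM. Smarcc2 stood at 398 to 439 CPM in the libraries with low Smarcc1, except dcKO inhibitor replicate 4, which was intermediate with 586 CPM. It stood at 644 to 695 CPM in the 4 libraries labelled dcKO with Smarcc1 near the control level. These 4 libraries, named "near-control" from here on, keep their label below, and the sums of reads, the ratios and the tests of the RNA are given with and without them. With all libraries the log2 difference of Smarcc1 was -0.61 in untreated and -0.71 in vehicle-treated dcKO samples (adjusted p = 0.251 and 0.289, edgeR, Benjamini-Hochberg). Without the near-control libraries it fell by 0.97 in both (adjusted p = 1.22e-05 and 0.000503, edgeR). As these libraries were set apart by their Smarcc1 level, the fit without them is no independent test of the fall.

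The promoters of the members with the highest mean CPM over the dcKO libraries are shown because the results turn on them, together with that of Hoxa5 as a member of the HoxA cluster. Each is 300 bases long, from 250 bases before to 50 bases after the start of transcription, on the strand of the gene (RefSeq, GRCm38.p6, the same build as mm10). CG dinucleotides are in capitals. Hoxb5, the third by mean CPM, is named only. The windows lie at chr2:74704365-74704664 (plus strand) for Hoxd8, chr2:74697513-74697812 (plus strand) for Hoxd9, chr15:103034145-103034444 (plus strand) for Hoxc4 and chr6:52204538-52204837 (minus strand) for Hoxa5.
Hoxd8: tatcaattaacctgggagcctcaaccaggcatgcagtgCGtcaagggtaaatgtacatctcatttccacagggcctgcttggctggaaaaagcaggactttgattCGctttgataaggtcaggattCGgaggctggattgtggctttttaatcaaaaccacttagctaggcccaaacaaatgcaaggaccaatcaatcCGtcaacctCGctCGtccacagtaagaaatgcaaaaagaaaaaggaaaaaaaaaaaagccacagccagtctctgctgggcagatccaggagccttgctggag
Hoxd9: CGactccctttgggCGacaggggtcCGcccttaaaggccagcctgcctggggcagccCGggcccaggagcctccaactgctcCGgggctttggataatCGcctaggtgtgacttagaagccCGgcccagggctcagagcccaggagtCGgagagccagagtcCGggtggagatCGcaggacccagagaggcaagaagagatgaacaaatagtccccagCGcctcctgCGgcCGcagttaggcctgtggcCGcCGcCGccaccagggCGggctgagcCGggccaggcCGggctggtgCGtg
Hoxc4: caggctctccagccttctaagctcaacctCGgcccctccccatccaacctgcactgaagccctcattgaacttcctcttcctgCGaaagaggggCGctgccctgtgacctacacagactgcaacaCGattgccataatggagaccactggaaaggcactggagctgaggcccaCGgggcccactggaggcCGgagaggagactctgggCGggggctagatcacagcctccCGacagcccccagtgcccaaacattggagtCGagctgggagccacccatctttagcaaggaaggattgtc
Hoxa5: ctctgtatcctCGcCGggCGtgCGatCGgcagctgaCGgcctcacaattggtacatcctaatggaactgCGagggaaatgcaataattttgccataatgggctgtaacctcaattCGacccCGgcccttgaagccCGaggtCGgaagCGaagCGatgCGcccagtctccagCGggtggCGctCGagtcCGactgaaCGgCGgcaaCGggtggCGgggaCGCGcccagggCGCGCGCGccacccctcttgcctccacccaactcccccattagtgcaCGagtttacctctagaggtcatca
The motif searched was CG, which reads the same on both strands. Hoxd8 held 6, Hoxc4 9, Hoxd9 20 and Hoxa5 29 of them. The 24 windows found for 22 of the 39 members held a median of 14.5 CG dinucleotides, beside 7.0 over the 32851 windows of all genes, and their median GC content was 57.7% beside 52.7%. The Hoxd8 and Hoxd9 windows lay wholly inside an H3K27me3 peak in 7 of 8 libraries, and those of Hoxc4 and Hoxa5 in 6 of 8.

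Hox transcripts were at the limit of detection in every library. In the 4 untreated controls all members together gave 5, 4, 3 and 1 reads, and in the 3 libraries labelled dcKO they gave 4, 19 and 21 reads. The 2 dcKO libraries with low Smarcc1 were thus well above all controls in reads, and the near-control library held no more reads than the upper controls. In CPM of the TMM-scaled library (scaled by the trimmed mean of M values), the summed level was 0.135 ± 0.0737 in controls (SD, n = 4) and 0.635 ± 0.267 in dcKO pallia (SD, n = 3). The near-control library, the smallest of all, stood at 0.336 CPM beside 0.210 CPM in the highest control. Without it the dcKO level was 0.784 ± 0.0909 (SD, n = 2). Pooled over a group, the level had a 95% Poisson interval of 0.0717 to 0.230 in controls and 0.507 to 0.936 in all dcKO libraries, which covers counting error only.

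The treated cortices gave the same order in a separate set of libraries. The WT vehicle libraries held 2, 4, 0 and 8 Hox reads and the dcKO vehicle libraries 24, 4, 23 and 25, of which the 4 reads were those of the near-control library. The dcKO inhibitor libraries held 4 and 3 reads in the near-control replicates 1 and 2, and 9 and 14 reads in replicates 3 and 4. The summed level was 0.154 ± 0.133 CPM in WT vehicle, 0.857 ± 0.457 in dcKO vehicle and 0.352 ± 0.178 in dcKO inhibitor libraries (SD, n = 4 each). Without the near-control libraries it was 1.08 ± 0.0817 in dcKO vehicle (SD, n = 3) and 0.498 ± 0.0853 in dcKO inhibitor libraries (SD, n = 2). The 3 dcKO vehicle libraries with low Smarcc1 lay at 1.002 to 1.166 CPM, above both dcKO inhibitor libraries with low Smarcc1, at 0.437 and 0.558. Both inhibitor libraries in turn lay above the highest WT vehicle library, at 0.310. Of the 2 inhibitor libraries, replicate 4 held 173 CPM of Smarcc1 and 586 CPM of Smarcc2, more than the 3 dcKO vehicle libraries. No test was made on these sums, since a sum over chosen members has no p-value here. In bulk tissue, fewer cells with a transcript and less transcript per cell cannot be told apart.

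**Figure D1:**
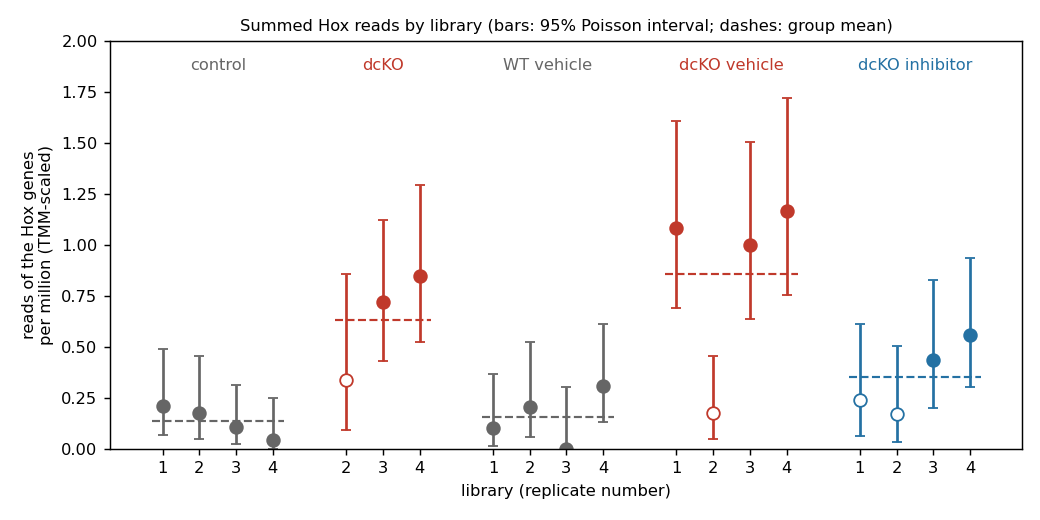
Summed level of the Hox genes in CPM of the TMM-scaled library (y axis) for each RNA-seq library (x axis, replicate number), with 95% Poisson intervals as bars and the group mean as a dashed line. Open symbols are the 4 libraries labelled dcKO with a Smarcc1 level near that of the controls, and the filled dcKO and dcKO vehicle symbols lie at 0.720 to 1.166 CPM.

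**Figure D2:**
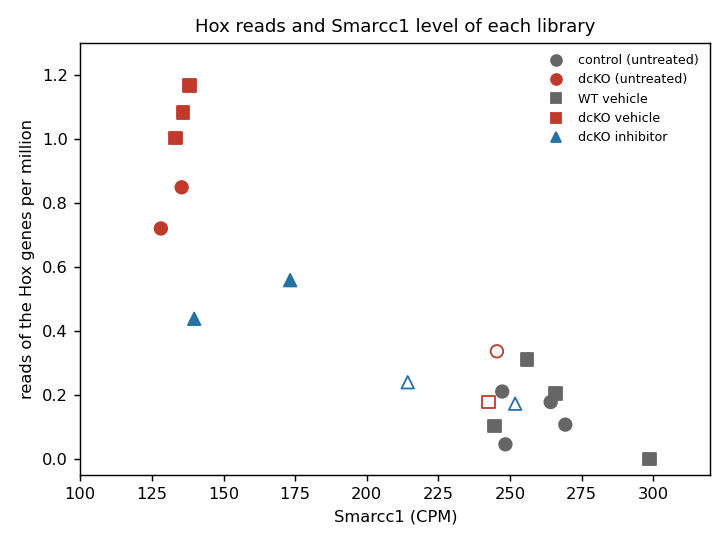
Smarcc1 level in CPM (x axis) and summed Hox level in CPM (y axis), 1 symbol per library, with open symbols for the 4 near-control libraries. The 7 libraries with Smarcc1 of 128 to 173 CPM lie at 0.437 to 1.166 CPM of Hox reads, and the 12 libraries with 214 to 299 CPM lie at 0 to 0.336.

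Neither set of libraries gave reads for all members. Over the 19 libraries 24 of 39 members had at least 1 read, and 15 had none in any library, among them Hoxa9, Hoxa11, Hoxb6, Hoxb7, Hoxb9, Hoxd10, Hoxd11 and Hoxd12. Between 1 and 5 members had a read in a control library, 2 to 9 in a dcKO library, 0 to 6 in WT vehicle, 3 to 13 in dcKO vehicle and 2 to 10 in dcKO inhibitor libraries. A count of 0 allows up to 3 reads in a library, so absence of a transcript could not be told from a level under this limit. The paralogue groups differed in the number of their reads. They also differ in size, and groups 1 to 3, 4 to 8 and 9 to 13 hold 8, 15 and 16 members. Members of groups 4 to 8, which pattern the posterior hindbrain and the cervical and thoracic cord, gave 4 reads in controls and 35 in dcKO pallia, and 8, 55 and 19 reads in WT vehicle, dcKO vehicle and dcKO inhibitor cortices. Of these, Hoxd8, Hoxb5 and Hoxc4 gave 15, 4 and 5 reads in dcKO pallia and 17, 13 and 8 in dcKO vehicle cortices. Members of groups 1 to 3, the anterior hindbrain genes, gave 3 and 4 reads in untreated, and 0, 5 and 1 reads in treated samples. Members of groups 9 to 13, the more posterior genes, gave 6 and 5 reads in untreated, and 6, 16 and 10 reads in treated samples. By cluster, HoxD held 2 reads in controls and 21 in dcKO pallia, and 2, 30 and 14 in the treated groups in the order above. HoxB held 3 and 11, then 4, 18 and 6 reads, HoxA 1 and 3, then 1, 14 and 2 reads, and HoxC 7 and 9, then 7, 14 and 8 reads. HoxC held more reads than any other cluster in the control and in the WT vehicle libraries. Without the near-control libraries, groups 1 to 3, 4 to 8 and 9 to 13 had 4, 34 and 2 reads in dcKO pallia, 4, 52 and 16 in dcKO vehicle and 1, 15 and 7 in dcKO inhibitor cortices. HoxA, HoxB, HoxC and HoxD then had 3, 11, 9 and 17 reads in dcKO pallia, 13, 17, 14 and 28 in dcKO vehicle and 2, 3, 6 and 12 in dcKO inhibitor cortices.

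**Figure D3:**
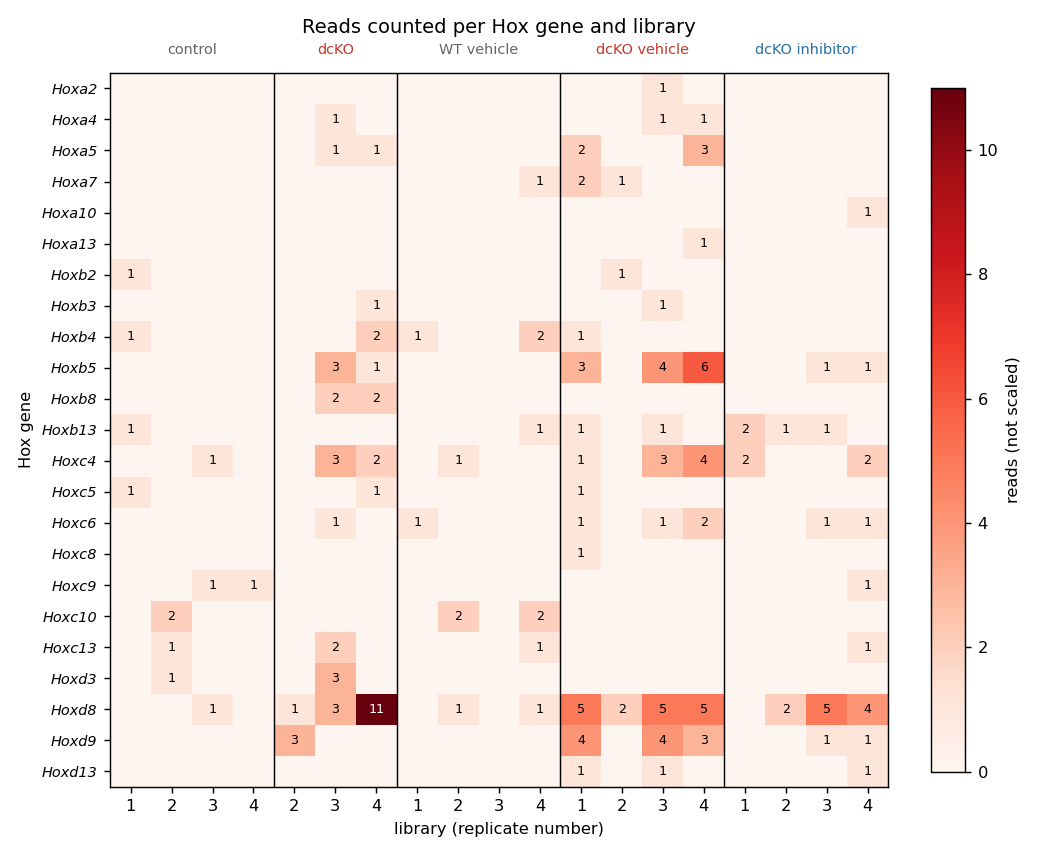
Reads counted for Hox genes with at least 1 read (y axis) in each library (x axis, replicate number, by group), with the unscaled number in each cell. Hoxd8 has the most reads, 11 in dcKO replicate 4, and no other gene exceeds 6 reads in a library.

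Of the 177 Hox reads, 100 belonged to Hoxd8, Hoxb5, Hoxd9 and Hoxc4, which are described singly because they had a mean of at least 2 reads in a group or an unadjusted p under 0.01. Hoxd8, a HoxD gene of the trunk region, had 0, 0, 1 and 0 reads in controls and 1, 3 and 11 in dcKO pallia. It had 0, 1, 0 and 1 reads in WT vehicle, 5, 2, 5 and 5 in dcKO vehicle, and 0, 2, 5 and 4 in dcKO inhibitor libraries. Every dcKO vehicle library held more Hoxd8 reads than any WT vehicle library, and the inhibitor group overlapped both. The ratio of the pooled levels was 23.0 in dcKO over control (95% interval 3.53 to 967, counting error only), 7.35 in dcKO vehicle over WT vehicle (1.75 to 65.6) and 0.722 in dcKO inhibitor over dcKO vehicle (0.306 to 1.63). Without the near-control libraries these ratios were 26.4 (4.02 to 1118), 8.67 (2.02 to 78.2) and 0.875 (0.337 to 2.13). Of the 15 reads in dcKO pallia, 11 came from replicate 4. Hoxd8 overlaps the antisense gene Hoxd3os1, from whose reads its own cannot be told apart in unstranded libraries.

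Hoxb5, a HoxB gene known for the cervical cord and for enteric neural crest, had no read in any control or WT vehicle library. It had 0, 3 and 1 reads in dcKO pallia and 3, 0, 4 and 6 in dcKO vehicle libraries, where the 0 was that of the near-control library. It had 0, 0, 1 and 1 reads in dcKO inhibitor libraries. Against the limit of 3 reads over the group, and with the dcKO reads taken as counted, the pooled level was at least 2.04-fold higher in dcKO than in control pallia and at least 3.75-fold higher in dcKO vehicle than in WT vehicle cortices. With the counting error of both groups the lower 95% bounds of these ratios were 1.01 and 2.64, and 1.25 and 3.52 without the near-control libraries. Hoxb5 overlaps the antisense gene Hoxb5os.

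Hoxd9, which stands next to Hoxd8 and acts in lumbar motor neurons and limbs, had no read in controls and WT vehicle libraries. In dcKO vehicle libraries it had 4, 0, 4 and 3 reads, and in dcKO inhibitor libraries 0, 0, 1 and 1. By the same limit the dcKO vehicle level was at least 3.17-fold higher than in WT vehicle, and the lower 95% bound with the counting error of both groups was 2.17, or 2.90 without the near-control library. In the untreated pallia its 3 reads all came from the library labelled dcKO replicate 2, whose Smarcc1 is near the control level, and the other 2 dcKO libraries had none. The untreated libraries with low Smarcc1 therefore do not share the Hoxd9 reads of the treated ones. Hoxc4, a HoxC gene of the cervical region, had 0, 0, 1 and 0 reads in controls and 0, 3 and 2 in dcKO pallia. It had 0, 1, 0 and 0 reads in WT vehicle, 1, 0, 3 and 4 in dcKO vehicle, and 2, 0, 0 and 2 in dcKO inhibitor libraries. Its ratio in dcKO vehicle over WT vehicle was 6.92 (0.928 to 307), and 9.25 (1.24 to 411) without the near-control library.

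The other 20 members with reads never exceeded 3 in a library. Hoxb8, a thoracic gene that overlaps no other annotated gene, had 0, 2 and 2 reads in dcKO pallia and none elsewhere. Hoxa5, which acts in the cervical cord and the lung, had 0, 1 and 1 reads in dcKO pallia and 2, 0, 0 and 3 in dcKO vehicle libraries, and none in the control, WT vehicle and inhibitor libraries. Hoxc10, a gene of lumbar motor neurons, went the other way, with 2 reads in 1 of the controls and 2 in each of 2 WT vehicle libraries and none in any library labelled dcKO.

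Whether these differences exceed the spread between replicates was tested with edgeR's quasi-likelihood test. With the usual filter on low counts, none of the 39 members was tested, in any comparison. Past that filter 0.00634% of all genes were called at an adjusted p under 0.05 in dcKO against control, 0.00611% in dcKO vehicle against WT vehicle, 0.055% in dcKO inhibitor against dcKO vehicle and 0.0977% in dcKO inhibitor against WT vehicle. The member values below come from the fit without the filter, which tested the 18 members with a read in the untreated and the 22 in the treated libraries. In that fit no member reached an adjusted p under 0.05 in any of the 4 comparisons, and DESeq2 gave no member an adjusted p. The share of all genes called was 0.591%, 0.0%, 0.0639% and 0.185% in the same order. The 4 genes described singly were picked by their read number, which favours genes that are high in 1 group. Members without a read in the control or WT vehicle libraries, such as Hoxb5, entered the fit only through reads of libraries labelled dcKO. Their log2 difference from those groups rests on the small count that edgeR adds to each value, so its size was not measured.

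In dcKO against control pallia, 3 of the 18 tested members were above the control at p under 0.05 before adjustment and 0 below it, beside 5.74% of all genes that were higher at that limit. Hoxd8 had a log2 difference of 3.91 (SE 1.04, adjusted p = 0.0900, edgeR, Benjamini-Hochberg). Hoxb5 and Hoxb8, each with 4 reads in dcKO and 0 in control pallia, had the same log2 difference of 3.63 (adjusted p = 0.356 for Hoxb5, edgeR). Without the near-control library, Hoxd8 rose by 4.19 (adjusted p = 0.0070, edgeR). It was then the 1 called of 17 members tested, and with 8.62% of all genes called in that fit this share is not above the background.

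In dcKO vehicle against WT vehicle cortices, 4 of the 22 tested members were above WT vehicle at p under 0.05 before adjustment and 1 below it, beside 3.15% of all genes that were higher. The log2 difference was 4.65 for Hoxb5 (SE 1.37, adjusted p = 0.331), 4.42 for Hoxd9 (SE 1.37, adjusted p = 0.387) and 2.64 for Hoxd8 (SE 0.88, adjusted p = 0.447, edgeR, Benjamini-Hochberg). Hoxa5 was the fourth at 3.36 and Hoxc10 the lower one at -3.23. With these near-control libraries left out, Hoxb5 was at 5.09 (adjusted p = 0.0164) and Hoxd9 at 4.85 (adjusted p = 0.0290, edgeR). Hoxd8 was at 2.87 (adjusted p = 0.0544, edgeR). Hoxb5 and Hoxd9 were 2 of 21 members tested, with 3.42% of all genes called in that fit. Both had no read in WT vehicle and were tested only through dcKO reads, so these calls are no independent support for a rise. Hoxc4 had an adjusted p of 0.335 there (edgeR).

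The inhibitor comparison asks whether the Wnt inhibitor changed these levels in dcKO cortices. Against dcKO vehicle, 0 of the 22 tested members were above and 3 below dcKO vehicle at p under 0.05 before adjustment, beside 5.39% of all genes that were lower. Hoxb5 had a log2 difference of -2.31 (adjusted p = 0.429), Hoxd9 of -2.08 (adjusted p = 0.487) and Hoxd8 of -0.48 (SE 0.65, adjusted p = 0.793, edgeR, Benjamini-Hochberg). The third lower gene was Hoxa5, at -3.36. In the fit without the near-control libraries Hoxb5 was at -2.02 (adjusted p = 0.469) and Hoxd8 at -0.18 (adjusted p = 0.977, edgeR), and 1.27% of all genes were called. Of the 2 near-control inhibitor libraries, 1 held no read of any of the 4 genes other than Hoxc4 and the other held only the 2 Hoxd8 reads. Against WT vehicle, 1 member was above and 1 below at this limit, beside 5.77% of all genes that were higher. Hoxd8 had a log2 difference of 2.15 (adjusted p = 0.355), and of 2.69 without the near-control libraries (adjusted p = 0.116, edgeR), in a fit that called 4.07% of all genes. The comparisons of treated samples share groups and are not independent of each other.

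Genes that act with or upon the clusters were followed in lists. PRC2 and PRC1 subunits (22 genes), Trithorax proteins and H3K27 demethylases (10) and the TALE cofactors that bind DNA with Hox proteins (9) were all tested, and 0 were called in either direction in any comparison with all libraries, by edgeR or by DESeq2. Past the filter, p under 0.05 before adjustment was reached by 7.91% of all genes as higher and 8.14% as lower in dcKO against control, and by 4.14% and 5.33% in dcKO vehicle against WT vehicle. Of the Polycomb genes 5 were higher and 0 lower at that limit in the untreated, and 1 and 0 in the vehicle comparison, while no gene of the other 2 lists passed it. In dcKO inhibitor against dcKO vehicle, where 7.85% of all genes were higher and 8.0% lower, 1 Polycomb and 1 Trithorax gene were higher and 1 of each lower, and 2 TALE genes were higher. Against WT vehicle, where 9.53% were higher and 10.2% lower, 3 Polycomb, 1 Trithorax and 3 TALE genes were higher and 1 Trithorax and 1 TALE gene lower. With all libraries, Phc1 of PRC1 was at 0.20 in dcKO against control and Pcgf1, also of PRC1, at 0.59 in dcKO inhibitor against WT vehicle (adjusted p = 0.160 and 0.139, edgeR). Kmt2a (MLL1), the Trithorax methyltransferase that maintains Hox expression, was at -0.53 and Dpy30, a subunit of its complex, at 0.33 in dcKO inhibitor against dcKO vehicle (adjusted p = 0.185 and 0.206, edgeR). The median log2 difference of the Polycomb list was 0.11 in dcKO against control and 0.05 in dcKO vehicle against WT vehicle, beside 0.00 over all genes in both. Without the near-control libraries, where 12.4% of all genes were called in the untreated and 5.82% in the vehicle comparison, 2 and 1 Polycomb genes rose and 0 fell. Jarid2, a PRC2 accessory subunit, rose by 0.31 in both (adjusted p = 0.0128 and 0.0499, edgeR), and Phc1 by 0.21 in the untreated pallia (adjusted p = 0.0427, edgeR). Of the TALE genes, Meis1 rose by 0.35 and Pbx2 by 0.30 in the untreated comparison (adjusted p = 0.0240 and 0.0426, edgeR) and 0 genes fell. In the vehicle comparison 0 TALE genes were called. No gene of the Trithorax list was called in these 2 comparisons. Without the near-control libraries the inhibitor comparisons called 1.02% of all genes against dcKO vehicle and 7.38% against WT vehicle. There Kmt2a fell by 0.63 and by 0.48 (adjusted p = 0.0370 and 0.0238, edgeR), and Ring1 of PRC1 rose by 0.47 against WT vehicle (adjusted p = 0.0490, edgeR).

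Among 20 upstream inducers of the clusters, 13 were tested with all libraries and 0 were called by edgeR, with 2 higher and 1 lower at p under 0.05 before adjustment in the untreated and likewise in the vehicle comparison. In dcKO inhibitor against dcKO vehicle 1 was higher and 0 lower at that limit, and against WT vehicle 2 and 1. DESeq2 called Cyp26b1, which degrades retinoic acid, as lower in the untreated comparison, 0 in the vehicle comparison, and Rarb, a retinoic acid receptor gene, as higher in both inhibitor comparisons, with 2.03%, 0.377%, 1.1% and 2.34% of all genes called by DESeq2 in the 4 comparisons in turn. By edgeR, Cyp26b1 was at -0.58 in the untreated, Egr2 (Krox20), which activates Hox genes in hindbrain segments, at 1.99 in the vehicle and Rarb at 1.90 in the comparison of inhibitor with dcKO vehicle (adjusted p = 0.107, 0.337 and 0.122). Once the near-control libraries were left out, Egr2 rose by 1.84 in untreated and 2.29 in vehicle-treated dcKO samples (adjusted p = 0.0084 and 0.0038, edgeR). Cyp26b1 fell by 0.55 and 0.61 (adjusted p = 0.0191 and 0.0444, edgeR). The receptor gene Rara and the ligand gene Wnt3 rose in the untreated comparison, by 0.50 and 0.74 (adjusted p = 0.0091 and 0.0327, edgeR). These were 3 genes up and 1 down of 13 in the untreated comparison, and 1 up and 1 down of 14 in the vehicle comparison, beside the 12.4% and 5.82% of all genes called. Of 20 other ANTP-class homeobox genes outside the clusters, 7 untreated and 9 treated were tested and 0 called by edgeR with all libraries, while 2 and 3 were higher and 0 lower at p under 0.05 before adjustment, and DESeq2 called Nkx6-1 in the untreated comparison and 0 in the vehicle comparison. In dcKO inhibitor against dcKO vehicle 2 were higher, and against WT vehicle 6 of 9 were higher, with 0 lower in both, and DESeq2 called Gsx1, a ParaHox gene of the ventral forebrain, against WT vehicle. By edgeR, Nkx6-1 was at 3.63 in the vehicle comparison, Msx1 at 1.36 against dcKO vehicle and Gsx1 at 2.14 against WT vehicle (adjusted p = 0.338, 0.185 and 0.0957). With the near-control libraries left out, Gsx1 rose by 2.37 and 2.19 (adjusted p = 0.0077 and 0.0004, edgeR). Gsx2 and Gbx2 rose in the untreated and Nkx6-1 in the vehicle comparison, by 0.87, 2.75 and 4.01, and 0 fell. In the inhibitor comparisons without the near-control libraries, 2 inducers, Egr2 and Rarb, rose by 2.47 and 1.54 against WT vehicle and 1, Cyp26b1, fell by 1.04 (adjusted p = 0.0064, 0.0274 and 0.0098, edgeR), while 0 were called against dcKO vehicle. Of the ANTP-class genes, Gsx1 and Nkx6-1 rose by 2.71 and 4.06 against WT vehicle (adjusted p = 0.0004 and 0.0159, edgeR). Barhl2 fell by 1.34 against WT vehicle and by 1.56 against dcKO vehicle (adjusted p = 0.0188 and 0.0387, edgeR).

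Neighbours of the clusters were followed to see how far differences reached along the chromosome. Of 16 neighbour genes 13 were tested with all libraries and 0 called by edgeR or DESeq2, with 2 higher and 1 lower at p under 0.05 before adjustment in the untreated and 1 higher in the vehicle and in each inhibitor comparison. Skap2, 143 kb from HoxA, had a log2 difference of 0.79 and 0.87 in the untreated and vehicle comparisons (adjusted p = 0.181 and 0.350, edgeR). It rose, without the near-control libraries, by 1.04 and 1.08 (adjusted p = 0.0012 and 0.0233, edgeR). Chn1, 893 kb from HoxD, fell by 0.28 in the untreated comparison (adjusted p = 0.0201, edgeR). In the inhibitor comparisons 0 of the neighbours past the filter were called, of 13 with all libraries and 14 without the near-control ones. Evx2, a homeobox gene 8.75 kb beyond Hoxd13 in the same H3K27me3 domain, did not pass the filter and is added because of its values, so its reads are a description and no test is given for it. It had no read in any of the 8 control and WT vehicle libraries. It had 1, 7 and 1 reads in dcKO pallia, 3, 3, 5 and 1 in dcKO vehicle and 0, 0, 5 and 3 in dcKO inhibitor libraries. Every library labelled dcKO without inhibitor thus held an Evx2 read, the near-control ones included. Evx1, 52.6 kb beyond Hoxa13, had no read in any library. Of the 16 antisense and long noncoding RNAs listed for the clusters, 11 were in the tables, 9 of them had no read in the untreated and 7 none in the treated libraries.

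Markers of other cell types were counted in the same libraries, since cells from the hindbrain or spinal cord would carry Hox transcripts. The 18 hindbrain and spinal cord markers summed to 49.0 to 56.9 CPM in controls, 52.3 to 66.7 in dcKO pallia, 50.9 to 69.3 in WT vehicle, 59.8 to 76.3 in dcKO vehicle and 77.1 to 90.6 in dcKO inhibitor libraries. Of these, Mnx1, Phox2a and Tlx1 were at 0 in all untreated libraries, and Fev and Mnx1 in all treated ones. The sum was highest in the inhibitor libraries. In the untreated and in the treated libraries, 3 of the 18 markers passed the filter on low counts. All 12 cortex markers were detected in each group, with sums of 2070 to 3920 CPM. Prm1, a sperm protamine, had 1 to 4 reads in the control and WT vehicle libraries, 31, 770 and 649 in dcKO pallia, 640, 56, 646 and 661 in dcKO vehicle and 48, 50, 250 and 206 in dcKO inhibitor libraries. The 4 lowest of these dcKO values, 31, 56, 48 and 50, were those of the near-control libraries. They still lay above every control and WT vehicle count. Prm1 is 1 of 7 testis germ cell genes listed. Of the others, Akap4, Prm2, Smcp and Tnp1 had no read in any library, and Odf1 had none in the untreated ones. The choroid plexus list summed to 25.01 to 166 CPM in the control, dcKO and vehicle groups and to 41.5 to 905 CPM in the inhibitor libraries. The sums of the meninges and mural (170 to 289 CPM), endothelium (168 to 231), blood (227 to 395) and microglia (43.4 to 70.2) lists overlapped between each dcKO group and its control group or lay below it. Marker genes at p under 0.01 before adjustment with all libraries, up to 4 per list, are given in the comparison where that p was smallest. In the untreated comparison Kit (blood) was at -0.25, P2ry12 (microglia) at -0.74 and Pax6 (cortex) at 0.45 on the log2 scale. In the vehicle comparison Prm1 rose by 7.10 (adjusted p = 0.0493, edgeR), while 1500015O10Rik (choroid plexus) was at 2.19, Flt1 (endothelium) at -0.49 and Tyrobp (microglia) at 0.70. In dcKO inhibitor against dcKO vehicle Folr1 and Clic6 (choroid plexus) were at 3.79 and 3.23, Ogn (meninges) at 1.57 and Slco1a4 (endothelium) at 2.65. Against WT vehicle Otx2 (choroid plexus) rose by 1.64 (adjusted p = 0.0464, edgeR), while Isl1 (hindbrain and spinal cord) was at 2.39, Kdr (endothelium) at -0.38 and the blood genes Hbb-bs, Hba-a2 and Hba-a1 at 0.67, 0.49 and 0.46. The adjusted p of the others in these sentences was 0.0809 to 0.325 (edgeR). Some of these genes went against the median log2 difference of their list. In the untreated comparison this median was 0.22 for blood, 0.12 for microglia and -0.22 for cortex, opposite to Kit, P2ry12 and Pax6. In the vehicle comparison it was -0.41 for choroid plexus, opposite to 1500015O10Rik. Against WT vehicle it was -0.05 over the 3 hindbrain and spinal cord markers tested, opposite to Isl1. The part of these markers in the Hox reads was not tested.

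H3K27me3 covered all 4 clusters in both genotypes. The clusters, from the first to the last base of their members, lie at chr6:52155590-52260880 (HoxA, 11 genes), chr11:96194316-96368256 (HoxB, 10 genes), chr15:102921103-103036852 (HoxC, 9 genes) and chr2:74668310-74765142 (HoxD, 9 genes) in GRCm38. The ChIP-seq libraries differed in quality, and the share of tags left after removal of duplicates was 61.5% and 62.2% in control replicates 2 and 4, and 66.5% and 32.8% in dcKO replicates 3 and 4. It was 12.29% to 18.01% in control replicates 1 and 3 and dcKO replicates 1 and 2. In the 4 libraries with more tags, 86.9% to 100% of each cluster lay in peaks, with 1 to 8 peaks per cluster. In the 4 libraries with few tags the coverage was 17.2% to 61.6%, in 16 to 41 shorter peaks per cluster. In control replicates 2 and 4 and dcKO replicate 3 the mean enrichment over input across a cluster, with 1 where no peak lay, was 5.84-fold to 7.37-fold. It was 8.60-fold to 10.7-fold in dcKO replicate 4 and 1.90-fold to 4.63-fold in the libraries with few tags.

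**Figure D4:**
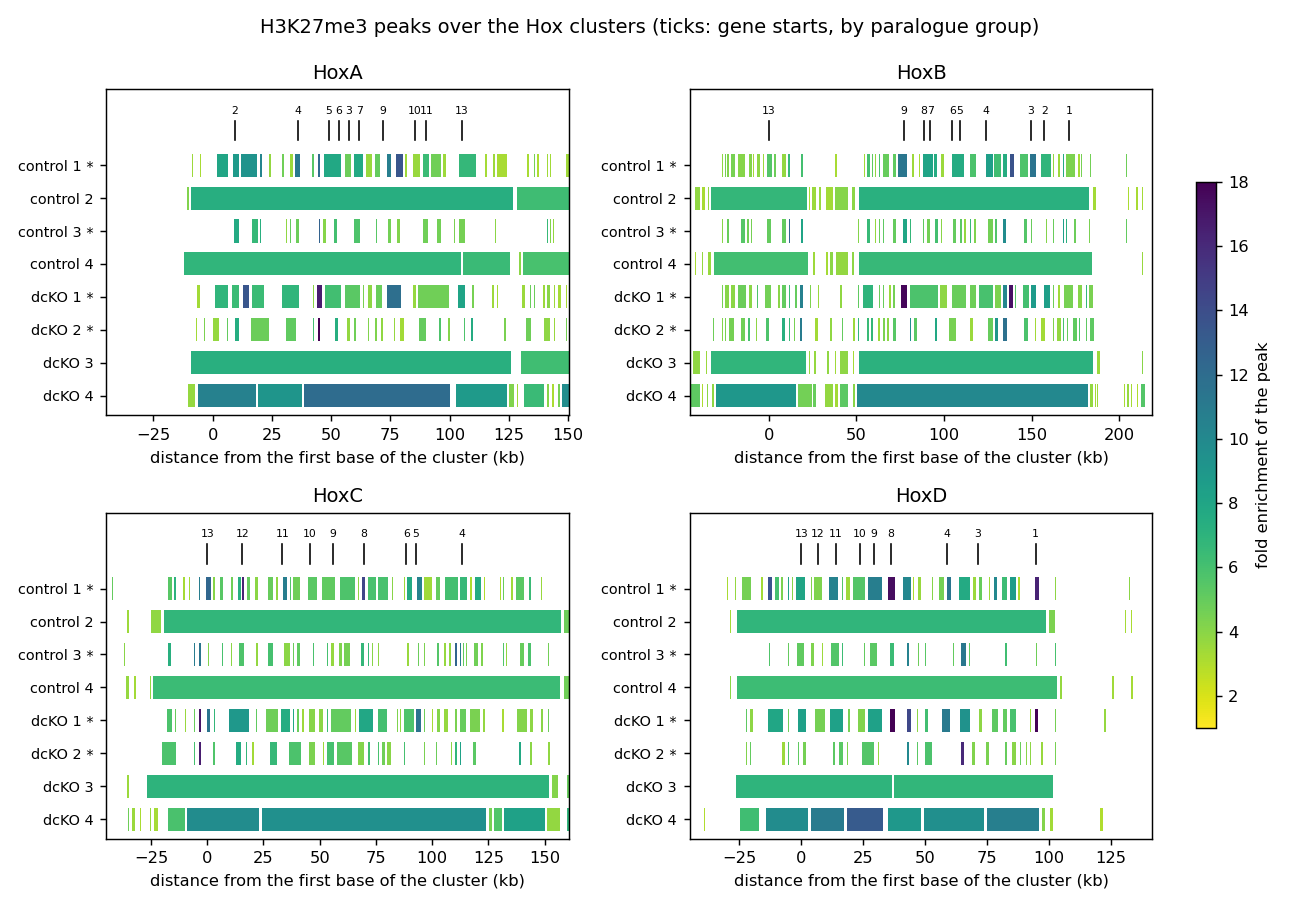
H3K27me3 peaks over the 4 Hox clusters and 45 kb on either side (x axis, distance from the first base of the cluster in kb) in each library (y axis), coloured by the fold enrichment of the peak, with ticks at gene starts numbered by paralogue group. An asterisk marks libraries that kept 30% of their tags or fewer, in which the domain is broken into 16 to 41 peaks per cluster.

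Merged over the libraries, the domains of the clusters were the longest of all H3K27me3 regions. The HoxC region, chr15:102894281-103078359, spanned 184 kb and was the longest of 22220 tested regions. The HoxA region spanned 139 kb (chr6:52143594-52282777), the HoxB region from Hoxb9 to Hoxb1 spanned 137 kb (chr11:96244458-96380969) and the HoxD region 130 kb (chr2:74641989-74771648), the next 3 in length. Hoxb13 lay in a region of its own of 60.2 kb, with 9 longer. Between Hoxb13 and Hoxb9, where no Hox gene lies, only short patches of 0.993 to 7.24 kb were marked in 2 or more libraries.

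The starts of the Hox genes were marked far more often than those of other genes in the same library. Of the 39 starts, 34, 39, 16 and 38 lay in a peak in control replicates 1 to 4, and 34, 7, 39 and 39 in dcKO replicates 1 to 4. Of 21899 other protein-coding starts 0.82% to 21.0% did. The counts of 34, 34, 16 and 7 were those of the libraries with few tags, and the single start outside a peak in control replicate 4 was that of Hoxa13. Each start lay in a peak in at least 4 of 8 libraries, and those of Hoxc8 and Hoxc9 in all 8. The start of Hoxd8 lay in a peak in all 4 control libraries and in dcKO replicates 1, 3 and 4, and that of Hoxb5 in control replicates 1, 2 and 4 and in dcKO replicates 1, 3 and 4. At the Hoxd8 start the peak was enriched 17.45-fold, 6.90-fold, 6.41-fold and 6.34-fold in the controls, and 18.1-fold, 6.96-fold and 8.94-fold in those dcKO libraries. The highest value in each genotype was that of replicate 1, a library with few tags, and control replicate 3, also with few tags, was at 6.41-fold. Of the neighbours, the Evx2 start lay in a peak in 2 of 4 control and 3 of 4 dcKO libraries, and that of Skap2 in 3 of 4 and 1 of 4.

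**Figure D5:**
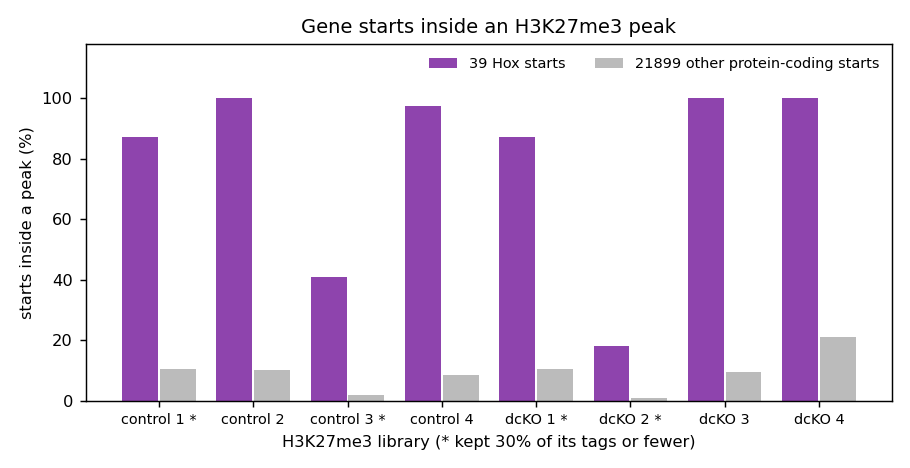
Share of gene starts that lie in an H3K27me3 peak (y axis, %) in each library (x axis), for the 39 Hox genes and for 21899 other protein-coding genes. The Hox share is 100% or 97.4% in the 4 libraries with over 30% of tags left, and 17.9% to 87.2% in the others, marked with an asterisk.

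The difference between genotypes in H3K27me3 was tested with limma on the log2 of the highest fold enrichment in each region. Of the 10 Hox regions tested, 0 reached an unadjusted p under 0.05, a limit that 0.221% of all 22220 regions passed, and all had an adjusted p of 1.0. The dcKO value was above the control value in 9 of 10, with a median log2 difference of 0.35 beside 0.05 over all regions. On the pileup scaled to the median of the library it was above in 7 of 10, with a median of 0.07 beside 0.04. In the longest HoxA region the highest enrichment was 13.5-fold, 7.37-fold, 12.7-fold and 6.89-fold in control replicates 1 to 4, and 16.7-fold, 22.7-fold, 7.30-fold and 12.03-fold in dcKO replicates 1 to 4. The groups overlapped, and the log2 difference was 0.48 (95% interval -0.40 to 1.36, limma). In the HoxD region the values were 17.45-fold, 6.90-fold, 11.3-fold and 6.34-fold in controls and 18.1-fold, 16.1-fold, 6.96-fold and 13.2-fold in dcKO pallia. The log2 difference there was 0.41 (SE 0.46, limma). In the longest HoxB and HoxC regions it was 0.31 (95% interval -0.65 to 1.26) and 0.28 (95% interval -0.63 to 1.19, limma). These intervals include both a gain and a loss, and a difference was not detectable between these libraries. Control replicates 2 and 4 and dcKO replicate 3, which kept 61.5% to 66.5% of their tags, were at 6.34-fold to 7.37-fold in all 4 longest regions.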

How the data were processed

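RNA-seq of 4 control and 3 dcKO pallia and of 4 WT vehicle, 4 dcKO vehicle and 4 dcKO inhibitor cortices, and ChIP-seq for H3K27me3 of 8 pallia, 4 per genotype, were analysed. For RNA, the deposited values are unscaled read counts per Ensembl gene, made by the authors with STAR (mm10) and featureCounts from a kit that keeps no strand. For ChIP, the authors removed duplicate tags and ran MACS2 in its broad mode (q-value limit 0.1) on each library, with the pooled input of its genotype as background. The fold enrichment deposited for each peak is the ratio used here. Pileup signal and −log10 q-values were also deposited and served as alternatives. H3K4me2 was not analysed here.

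Counts were tested with edgeR 4.0.16 (TMM, filterByExpr, robust quasi-likelihood test) in R 4.3.3, the untreated libraries alone and the 12 treated libraries in 1 fit, with Benjamini-Hochberg adjustment over all genes at 0.05. The SE printed with edgeR values is the size of the log2 difference divided by the square root of the F statistic. It is an approximation and no fitted standard error. As no Hox gene passed filterByExpr, values of members come from the fit without it, an alternative planned beside it. Smarcc1 and Smarcc2 were used to name the 4 near-control libraries, and fits without them were added after the data were examined. Hox levels in CPM use the TMM-scaled library size with exact 95% Poisson intervals. Peaks that share 1 bp were merged to regions, which had to hold peaks of 2 or more libraries, and log2 fold enrichment, set to 0 where a library had no peak, was tested with limma 3.58.1 (trend, robust). Genes and clusters were placed with GENCODE M21 on GRCm38, the build of mm10, and promoters with RefSeq. Members were named singly at a mean of at least 2 reads in a group of 3 or more libraries or an unadjusted p under 0.01 in any of the 4 comparisons with or without the filter. Genes of lists were given values where their unadjusted p was under 0.01 with all libraries, up to 4 per list with the smallest p, in the comparison of that p, and where they were called without the near-control libraries in the pathway lists. A few genes are not reported by themselves here and stay in the counts. Members and lists were chosen with earlier results of these data known. Alternatives were DESeq2 1.42.0 and its size factors, no filter, a block for the replicate number, the compared groups alone, each library left out, a q-value under 0.01, peaks in at least 3 libraries, a larger overlap, the pileup and centring. Fits were tested on simulated data. Tables were joined with pandas 2.3.3 in Python 3.11.15.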

Additional observations from a re-analysis of the deposited data

Results flagged for a closer look

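In 5 measures 1 library stood apart from the other 3 of its group, its gap to the nearest library being a larger share of the range of the group than the 95% limit of Dixon's test, which chance passes in about 1 of 20 groups. In the dcKO vehicle group this was replicate 2 in 4 measures. Its summed Hox level was 0.178 CPM beside 1.002 to 1.166 CPM in the others (gap 0.835 of the range), and its Hoxd8 count was 2 beside 5, 5 and 5 (0.894 of the range in CPM). Its Smarcc1 level was 242 CPM beside 133 to 138 (0.954), and its Smarcc2 level 692 CPM beside 425 to 439 (0.947). In the H3K27me3 libraries of dcKO pallia, replicate 2 had 7 of 39 Hox starts in a peak beside 34, 39 and 39 (0.844), and it kept 18.01% of its tags.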

How the results depend on the processing

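Each library held 0 to 25 Hox reads, which limits every member value. With the filter on low counts no member was tested, so none could be called under any alternative that kept the filter. Without it and without the near-control libraries, 1 member was called in dcKO against control and 2 in dcKO vehicle against WT vehicle. The latter 2, Hoxb5 and Hoxd9, had no read in the WT vehicle libraries. Leaving out each library in turn without the filter gave 0 to 1 and 0 to 2 members called in these comparisons, and both highest values came without the near-control library (dcKO replicate 2, dcKO vehicle replicate 2). At an unadjusted p under 0.01 and without the filter, dcKO against control had 1 member, as with DESeq2, with DESeq2 size factors and without the near-control library. It had 0 to 1 with each library left out (0 without dcKO replicate 4). The vehicle comparison had 0 with DESeq2, and 3 without the filter, with DESeq2 size factors, with only the 2 groups and without the near-control libraries. Without the filter it had 1 to 3 with each library left out (1 without WT vehicle replicate 4). DESeq2 gave no adjusted p for any member. The inhibitor comparisons had 0, with 0 to 1 when each library was left out, and against WT vehicle 1 without the near-control libraries. Without Hoxd8 the difference of the summed level in untreated pallia was 0.29 CPM in place of 0.50, Hoxd8 being part of it. The causes of the other changes were not tested.

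The replicate block changed no call of a Hox member or Hox region at an adjusted p under 0.05. Over all genes without the filter, the block gave 18 higher and 2 lower calls in dcKO against control, beside 88 and 66 without the block. In the vehicle comparison the block gave 154 and 175, beside 0 and 0. Without the filter it left 0 members in dcKO against control and 3 in the vehicle comparison at an unadjusted p under 0.01. Same-numbered libraries did not deviate together throughout. Their correlations were -0.311 to -0.0330 in untreated, -0.0125 to 0.382 between dcKO vehicle and WT vehicle, and -0.323 to 0.579 in H3K27me3 libraries. Between inhibitor and dcKO vehicle they were -0.0980 to 0.199, and between inhibitor and WT vehicle -0.176 to 0.403. So few pairs cannot show whether the numbers stand for a litter or a batch. For H3K27me3, 0 Hox regions were called under any alternative, and 2, HoxA and HoxD, passed an unadjusted p under 0.05, higher in dcKO, without control replicate 1. In the 4 libraries that kept over 30% of tags, 1 patch of 0.993 kb between Hoxb13 and Hoxb9 passed it as lower (log2 difference -1.95, limma). The median over the Hox regions fell from 0.35 to 0.07 with the pileup. The pileup, centring, 3 libraries and the block cannot give another number of starts in peaks. For the 4 genes described singly and the 4 longest regions, 256 of 262 alternative values kept their side of the threshold, 6 became stronger and 0 changed sign. Against control or WT vehicle, where these genes had few or no reads, a change of sign was hardly possible. Without dcKO replicate 2, Hoxd9 had no read in untreated libraries and no value to count. For these genes the tally is thus no test of stability. Over all members tested without the filter 14 of 1017 alternative values changed sign, and over the 10 Hox regions 5 of 151, all in patches between Hoxb13 and Hoxb9. Over all genes, dcKO against control had 1 call with the filter, 154 without it, 529 with DESeq2 and 1994 with the filter and without the near-control library.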
